A study of Mus musculus with 6 samples.

Results

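Interleukin 17 CD4 T cells are the helper T cells of these lungs in which RNA of an interleukin 17 cytokine was found. They were taken as barcodes with 500 genes or more, 1000 or more UMIs (unique molecular identifiers, each standing for 1 captured RNA molecule) and mitochondrial UMIs of at most 15%. In addition a cell needed at least 1 UMI of Cd3e, at least 1 of Cd4 and at least 1 of Il17a or Il17f, with none of Trdc, Cd8a or Cd79a. The rule found 319 cells among 2301 CD4 cells (13.9%) and among 88616 barcodes that passed the filters (0.360%). The other 1982 CD4 cells met every condition except the UMI of Il17a or Il17f, and are called other CD4 cells below.

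The cells came from single-cell RNA sequencing of lungs of 6 male mice aged 21 months, with 1 library per mouse. The 3 mice labelled p16-DTR carried p16-CreERT2, a tamoxifen-activated Cre recombinase driven from the p16 promoter, together with R26-LSL-DTR, a diphtheria toxin receptor that Cre switches on. The 3 control mice carried p16-CreERT2 without the receptor. Tamoxifen was given to all 6 mice for 5 days, followed after 2 weeks by diphtheria toxin for 5 days and by 2 weeks of recovery. The design is meant to remove cells in which the p16 promoter is active, of whatever type, and is not aimed at T cells. Each library mixed 20000 sorted CD45-negative with 9000 CD45-positive cells, so numbers per library do not give numbers per lung. With 1 lung per library, p-values measure the spread between mice.

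Helper T cells of type 17 are known for secreting interleukin 17A and 17F, which act on epithelium and stroma to draw in neutrophils. The receptor for interleukin 23 sustains them. The nuclear receptor encoded by Rora, one of the factors known from these cells, binds DNA elements that hold the half-site AGGTCA. In barrier tissues such as the lung many stay resident after an infection, and gamma-delta T cells are the other main lymphocyte source of interleukin 17.

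Il17a (ENSMUSG00000025929, chromosome 1, 20730905 to 20734496, plus strand) and Il17f (ENSMUSG00000041872, chromosome 1, 20777146 to 20790617, minus strand) are neighbours in GRCm38, and Il23r (ENSMUSG00000049093) lies on chromosome 6, 67422932 to 67491855, minus strand. The 250 bases before the start site of these 3 genes are shown because 2 of them chose the cells and the third encodes a chain of the interleukin 23 receptor. Sequences are RefSeq's for GRCm38.p6 (its start of Il17f lies inside the span given above), on the strand of the gene, with each AGGTCA in capitals (TGACCT where it lies on the opposite strand).
Il17a promoter, chr1:20730655-20730904, plus strand: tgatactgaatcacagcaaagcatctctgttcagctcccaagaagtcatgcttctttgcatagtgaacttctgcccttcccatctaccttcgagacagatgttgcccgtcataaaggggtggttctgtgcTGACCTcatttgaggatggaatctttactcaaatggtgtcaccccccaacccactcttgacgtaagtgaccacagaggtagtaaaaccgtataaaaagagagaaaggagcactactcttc
Il17f promoter, chr1:20784271-20784520, minus strand: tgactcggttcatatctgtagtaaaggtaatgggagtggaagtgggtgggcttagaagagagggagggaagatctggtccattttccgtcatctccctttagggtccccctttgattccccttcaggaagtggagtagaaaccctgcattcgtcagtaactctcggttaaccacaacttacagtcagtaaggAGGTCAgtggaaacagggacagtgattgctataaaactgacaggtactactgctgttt
Il23r promoter, chr6:67491856-67492105, minus strand: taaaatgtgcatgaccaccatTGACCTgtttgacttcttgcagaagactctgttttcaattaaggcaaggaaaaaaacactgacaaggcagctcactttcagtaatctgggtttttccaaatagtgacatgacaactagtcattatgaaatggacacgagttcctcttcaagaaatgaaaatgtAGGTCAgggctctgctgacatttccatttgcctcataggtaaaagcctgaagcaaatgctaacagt
The half-site began 120 bases before the start in Il17a, 58 bases before it in Il17f, and 229 and 66 bases before it in Il23r. Searched on both strands, AGGTCA was present in the 250-base windows of 15.8% of 27025 genes. A match of these letters is a description of the sequence and not a binding site.

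The libraries held 13482 to 17332 barcodes and 254200305 to 344421685 UMIs. Pairs of libraries shared 59 to 94 barcode sequences, at most 0.586% of the smaller library. Cdkn2a, which encodes p16, was not lower in the mice labelled p16-DTR: in their other CD4 cells it stood at 16.96, 17.5 and 13.9 counts per 1e6 (CPM), against 2.20, 7.09 and 2.32 in controls. Counts per gene cannot tell the p16 transcript from another transcript of Cdkn2a, and the difference was not called (log2 fold change 2.05, SE 0.42, edgeR adjusted p 0.128). Directions below therefore hold for the libraries as labelled.

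Interleukin 17 CD4 T cells were common in controls and scarce in the mice labelled p16-DTR. Control replicates 1, 2 and 3 held 75 of 282 CD4 cells (26.6%, exact 95% interval 21.5% to 32.2%), 109 of 347 (31.4%, 26.6% to 36.6%) and 99 of 469 (21.1%, 17.5% to 25.1%). The p16-DTR-labelled libraries held 20 of 283 (7.07%, 4.37% to 10.7%), 3 of 404 (0.743%, 0.153% to 2.15%) and 13 of 516 (2.52%, 1.35% to 4.27%). Every control library lay above every library labelled p16-DTR, with means of 26.4% ± 5.16 and 3.44% ± 3.26 (SD, n = 3 each) and a difference of −22.9 percentage points. The cells were chosen on these UMIs with this difference known, so it is a description and was not tested, and the intervals cover counting error only.

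**Figure D1:**
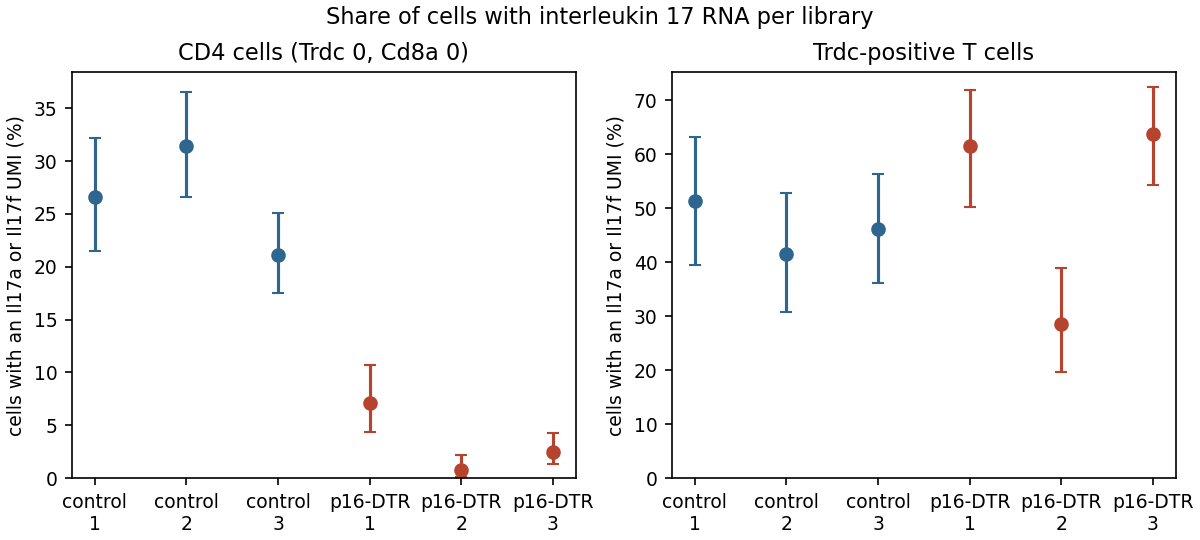
Percent of cells with an Il17a or Il17f UMI in each library, for CD4 cells (left) and Trdc-positive T cells (right); points are single libraries and bars exact 95% binomial intervals. CD4 shares run from 21.1% to 31.4% in controls and from 0.743% to 7.07% in the p16-DTR-labelled libraries, while the groups overlap in Trdc-positive cells.

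Free RNA sets a floor under such shares. Among B cell barcodes (Cd79a-positive, Cd3e-negative), which should lack interleukin 17, 0.615%, 0.761% and 0.755% held an Il17a or Il17f UMI in the p16-DTR-labelled libraries, at median depths of 16887.5, 17730 and 17200 UMIs, and 1.05%, 0.695% and 0.910% did in controls. The share of p16-DTR replicate 2 (3 cells, 0.743% of its CD4 cells) is thus at the level of background. Of its 3 cells 1 held 2 such UMIs, and this cell also held Tmem176a, Il23r and Ccr6. In that library 1 of 1445 B cell barcodes held 2 or more. Other CD4 cells had median depths of 15695, 14809 and 14052 UMIs in the p16-DTR-labelled libraries and 15947, 15955.5 and 16012 in controls. With each cell thinned to 3000 UMIs the shares were 5.30%, 0.248% and 0.984%, against 20%, 22.03% and 14.6% in controls (14 CD4 cells were too shallow), and the groups again did not overlap. Without barcodes holding 5 or more UMIs of other cell types' markers, the share of p16-DTR replicate 1 went from 7.07% to 2.53% (2 of 79). Such UMIs were held by 18 of its 20 members (90.0%) and by 70.7% of its other CD4 cells. The shares of p16-DTR replicates 2 and 3 were then 1.46% and 2.13%, against 31.4%, 28.0% and 20% in controls.

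Control members also held more interleukin 17 RNA each, again as a description. The median member of control replicates 1, 2 and 3 held 17, 9 and 10 UMIs of Il17a and Il17f together, and that of the p16-DTR-labelled libraries 4.5, 1 and 1. At least 10 UMIs were found in 50, 53 and 51 control members and in 8, 0 and 2 members of the p16-DTR-labelled libraries. In sum the members held 263, 2 and 72 UMIs of Il17a in the p16-DTR-labelled libraries and 1822, 1903 and 1593 in controls. For Il17f the sums were 40, 2 and 15, and 601, 777 and 978. Both cytokine genes were found together in 46 of 75, 62 of 109 and 50 of 99 control members, and in 7 of 20, 0 of 3 and 2 of 13 of the others.

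**Figure D2:**
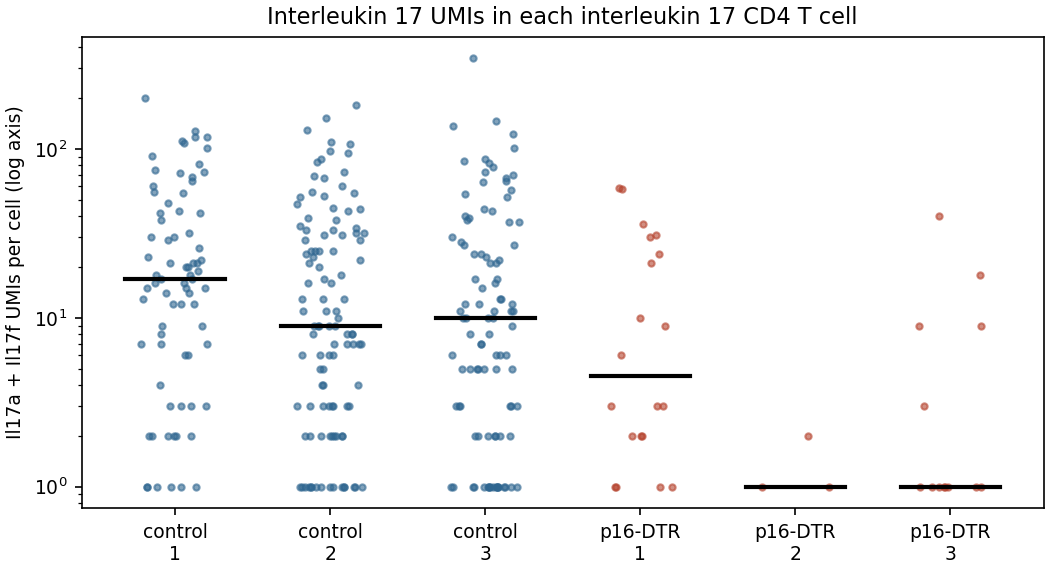
UMIs of Il17a and Il17f in each interleukin 17 CD4 T cell (log axis), by library; each point is 1 cell and each bar the library median, with sideways scatter only to separate points. Control cells reach 200, 182 and 345 UMIs, and the cells of p16-DTR replicate 2 hold at most 2.

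Members just inside the rule, with exactly 1 UMI, numbered 6, 16 and 19 in controls and 4, 2 and 8 in the p16-DTR-labelled libraries. Il23r, the receptor gene, was seen more often in the control cells with a single UMI: pooled over libraries it was found in 78.0% of 41 control members and in 21.4% of 14 others. Just outside the rule, among CD4 cells with no such UMI, it was found in 15.7% of 815 control cells and 4.54% of 1167 cells of the p16-DTR-labelled libraries. Among members with 10 or more UMIs the shares were 93.5% of 154 and 90.0% of 10. Pooled shares weigh libraries by their cells and carry no test. Split by library, the single-UMI members with Il23r were 4 of 6, 13 of 16 and 15 of 19 in controls. In the p16-DTR-labelled libraries they were 2 of 4, 0 of 2 and 1 of 8. With 10 or more UMIs they were 8 of 8 in p16-DTR replicate 1 and 1 of 2 in replicate 3.

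The members carried RNA of the alpha and beta chains, and many also RNA of gamma chains. The constant gene Trac was found in all members of 5 libraries and in 98 of 99 in control replicate 3, and Trbc2 in all members of 4 libraries, in 107 of 109 in control replicate 2 and in 97 of 99 in control replicate 3. Trdc was 0 by the rule, and the gamma-delta variable genes Trdv4 and Tcrg-V6 were at 0 in the members of every library. Trdv4 was also at 0 in other CD4 cells of 4 libraries, and Tcrg-V6 was found in 48.4% to 73.2% of Trdc-positive T cells. Another gamma variable gene, Tcrg-V4, was present: it was found in 3 of 75, 17 of 109 and 14 of 99 control members, against 0 of 207, 4 of 238 and 3 of 370 other CD4 cells of the same libraries. In the p16-DTR-labelled libraries it was found in 1 of 20, 0 of 3 and 0 of 13 members. Other gamma-delta genes were not absent: at least 1 UMI of the remaining gamma-delta list was found in 42.7%, 70.6% and 63.6% of control members, in 11 of 20, 2 of 3 and 1 of 13 of the others, and in 9.66% to 20.9% of other CD4 cells. Most of these UMIs were from Tcrg-C1, a gamma constant gene with near-identical copies, so its counts are uncertain. Of the control members with Tcrg-V4, 2 of 3, 15 of 17 and 12 of 14 also held an alpha or beta variable gene. Of those with a UMI of the remaining list, 17 of 32, 57 of 77 and 47 of 63 did. Whether members with gamma chain UMIs are gamma-delta cells, barcodes of more than 1 cell or alpha-beta cells with gamma transcripts cannot be told apart from these counts.

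With all cells that held such a UMI left out, an alternative chosen after seeing the data, the shares were 18.7%, 14.3% and 10.2% in controls and 4.15%, 0.286% and 2.68% in the p16-DTR-labelled libraries. The groups again did not overlap, but the difference was −12.0 points in place of −22.9. In controls this left out 42.7%, 70.6% and 63.6% of members but 9.66%, 19.7% and 14.3% of other CD4 cells. A smaller difference follows from that choice. A variable gene of the alpha or beta chain was found in 44 of 75, 81 of 109 and 72 of 99 control members, against 156 of 207, 187 of 238 and 277 of 370 other CD4 cells of controls, and in 13 of 20, 2 of 3 and 9 of 13 of the other members. A beta variable gene alone was found in 41.3%, 46.8% and 46.5% of control members and in 59.4%, 61.8% and 57.0% of their other CD4 cells. Among Trdc-positive T cells of controls such a gene was found in 17.6%, 17.1% and 11.8%. The most frequent alpha gene of members was Trav2 in control replicate 1 (4 of 75, 5.33%, among 15 alpha genes detected), Trav14-3 in control replicate 2 (14 of 109, 12.8%, among 25) and Trav3-3 in control replicate 3 (13 of 99, 13.1%, among 27). In other CD4 cells of these libraries the most frequent one was in 3.86%, 3.36% and 3.51% of cells, among 46, 53 and 55 genes in more cells. The gap was smallest in control replicate 1, and none of the 3 was tested. These families also hold near-identical copies.

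Counts of the members were summed per library and compared with those of other CD4 cells of the same mouse, in the 4 libraries with at least 20 members (p16-DTR replicate 1 and the 3 controls). Genes called higher in members included receptors, factors and homing genes of type 17 cells, such as Il23r, Irf4 and Ccr6, and those called lower included T helper 1, regulatory and follicular helper genes, such as Il12rb2, Foxp3 and Cxcr5. Of 12377 genes tested, 425 were higher and 270 lower in members (edgeR quasi-likelihood test with library as a block, adjusted p under 0.05), which is 5.62% of genes in either direction, 3.43% higher and 2.18% lower. The lists below are read against these shares. All of the lists were chosen with earlier results of these data known, so their directions are not independent evidence. Calls numbered 280, 206 and 280 without control replicates 1, 2 and 3 in turn, and 707 without p16-DTR replicate 1. Scaled by library size alone, 54.7% of calls were higher in place of 61.2%. The median log2 fold change of all genes was −0.02.

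Of 18 cytokine receptor genes 5 were higher and 1 lower, with a median log2 fold change of 0.45. Il23r, the subunit particular to the interleukin 23 receptor, stood at 315, 412, 463 and 367 CPM in members of p16-DTR replicate 1 and control replicates 1, 2 and 3, against 27.2, 44.5, 66.1 and 62.2 CPM in other CD4 cells. Members were thus far above their own library's other CD4 cells in all 4, by a log2 fold change of 3.05 (SE 0.18, edgeR adjusted p 0.000763). Il1r1, the receptor of interleukin 1, was higher by 2.84 on the log2 scale, Il17re, a receptor of interleukin 17C, by 3.02, Il2ra, the alpha chain of the interleukin 2 receptor, by 1.89, and Il18r1 by 1.27. Il6st, the signalling chain shared by interleukin 6 family receptors, was lower (−2.02). Il18r1 and Il6st were named after their values were seen.

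Of 13 transcription factors of the type 17 list, 4 were higher, 0 lower and 9 not called, with a list median of 0.10. Irf4, a factor induced by signals of the T cell receptor, stood at 91.5, 119, 135 and 92.6 CPM in members and 28.1, 28.8, 36.5 and 40.1 CPM in other CD4 cells, higher in 4 of 4 libraries (log2 fold change 1.75, SE 0.17, edgeR adjusted p 0.00291). Ikzf3 (1.505), Bhlhe40 (1.12) and Rora (1.06) were also higher on the log2 scale. The call of Rora was lost without control replicate 2 (edgeR adjusted p 0.0616) and that of Bhlhe40 without cells holding another gamma-delta marker (0.0682).

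Of 14 homing and adhesion genes, 8 were higher and 1 lower (median 0.64). Ccr6, the receptor for the chemokine CCL20, was at 168, 107, 196 and 111 CPM in members and 17.3, 26.1, 47.6 and 31.7 CPM in other CD4 cells (log2 fold change 2.29, SE 0.25). Cxcr6, a receptor of lung-resident T cells, was higher by 2.29, the leukotriene receptor Ltb4r1 by 2.41 and Ccr2 by 1.26. The integrin Itgb8, named after its values were seen, was lower (−3.87, edgeR adjusted p 0.0531 without control replicate 2). Of 14 tissue residence genes tested 6 were higher, among them Cd69 (0.76) and Nr4a1 (1.10), and 1, Pdcd1 (−1.77), was lower. The calls of Cd69 and Nr4a1 were lost without control replicate 2 (0.0567 and 0.0592), that of Cd69 also without barcodes holding 5 or more UMIs of other cell types' markers (0.0900), and that of Pdcd1 without any 1 control (up to 0.117).

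**Figure D3:**
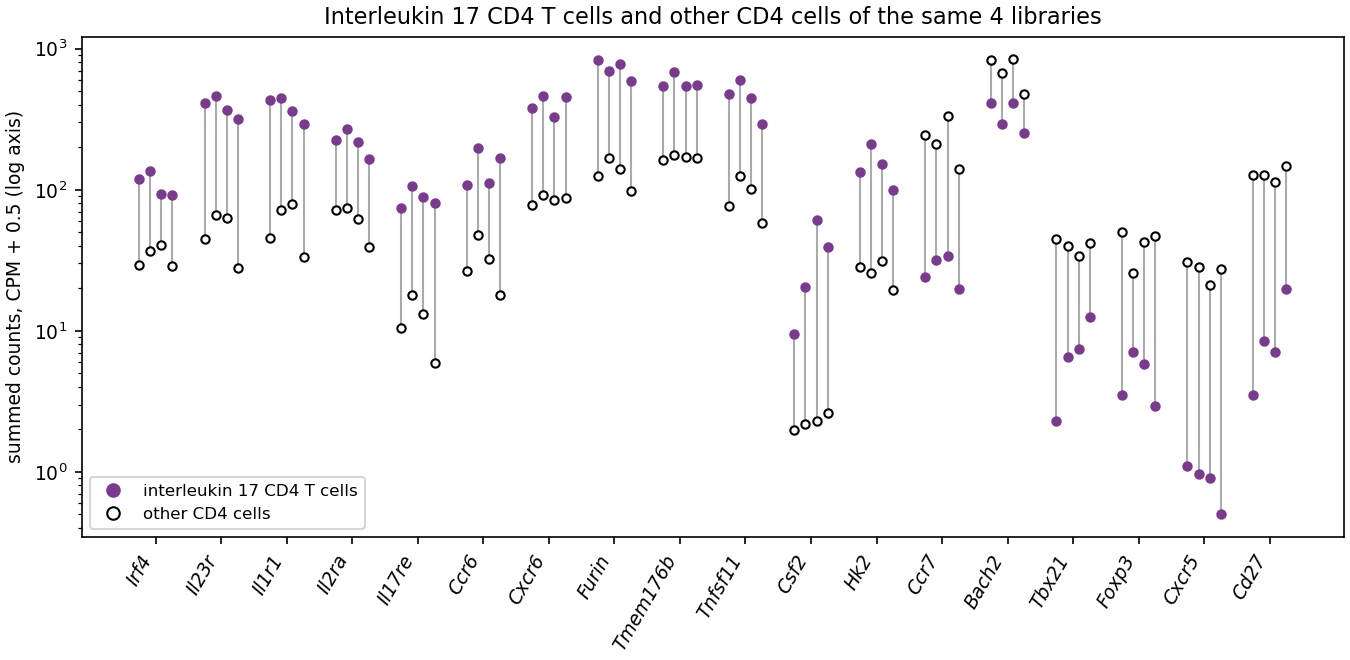
Summed counts (CPM + 0.5, log axis) in interleukin 17 CD4 T cells (filled) and other CD4 cells (open), joined within a library; for each gene the 4 libraries are control replicates 1, 2 and 3 and p16-DTR replicate 1 from left to right. Il23r lies at 315 to 463 CPM in the cells and 27.2 to 66.1 CPM in the others, and the order is the opposite from Ccr7 rightwards.

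The list of other genes known to mark type 17 cells had 18 of 19 tested members higher and 0 lower, with a median of 1.84. Like the other lists, it was drawn up with earlier results of these data known, so its direction is not independent evidence. Furin, a protease that cuts cytokine precursors, stood at 590, 826, 695 and 783 CPM in members and 97.3, 125, 168 and 139 CPM in other CD4 cells (log2 fold change 2.51, SE 0.12, edgeR adjusted p 0.000705). Tmem176b, a membrane ion channel, was higher by 1.84 (SE 0.10). Its neighbour Tmem176a was proposed as a marker of these cells, is not counted in the list and is given without a test: 467, 477, 657 and 491 CPM in members against 122, 132, 142 and 143 CPM. Capg (1.39), Adam12 (2.75) and Icos (1.09) were higher too, and Tmeff2 (2.96) was, except that its call was lost without any 1 control (edgeR adjusted p up to 0.126). Trdc-positive T cells of the same 4 libraries stood above the members in Tmem176a (876, 754, 769 and 671 CPM). They did so also in Tmem176b (1007, 856, 899 and 855 CPM) and Il23r (981, 955, 1132 and 978 CPM). They stood below the members in Ccr6 (34.5, 46.0, 30.2 and 20.6 CPM) and Tmeff2 (9.35, 52.4, 22.6 and 4.12 CPM). Members and Trdc-positive cells were not tested against each other.

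Among the effector genes other than Il17a and Il17f, 6 of 16 tested were higher and 4 lower (median 0.63). Tnfsf11, the ligand RANKL, was at 291, 478, 605 and 447 CPM in members against 57.4, 75.7, 124 and 100 CPM (log2 fold change 2.41, SE 0.11, edgeR adjusted p 0.000618). Csf2, which encodes GM-CSF, was at 38.5, 9.05, 20.04 and 60.2 CPM against 2.12, 1.47, 1.67 and 1.77 CPM (4.07, SE 0.42). Il22 had the largest log2 fold change of the genes named as higher, 5.70 (SE 0.83, edgeR adjusted p 0.0116), with 183, 10.9, 58.7 and 23.8 CPM in members and at most 1.47 CPM in other CD4 cells. It came from few cells, 3 of 20, 2 of 75, 4 of 109 and 5 of 99, and its call was lost without control replicate 2 (0.0976) and without cells holding another gamma-delta marker (0.121). Tnfsf8 was higher by 1.19, lost without control replicate 1 (0.0581) and without barcodes holding 5 or more UMIs of other cell types' markers, where it was 0.54 (edgeR adjusted p 0.347). Further genes among the largest increases were Ppp1r14c (3.81), 5830411N06Rik (3.41), Ermn (3.25), Pxdc1 (3.11), Tcrg-C1 (3.02) and Cpe (3.01). Of these the call of Ermn was lost without any 1 control (up to 0.0693).

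Of 12 T helper 1 genes 8 were lower and 0 higher (median −2.92). Other CD4 cells were not split into subsets, so lower values here and in the next lists do not show repression in members. Il12rb2, a chain of the interleukin 12 receptor, was at 2.41, 1.81, 3.73 and 2.46 CPM in members against 49.9, 80.1, 24.8 and 49.9 CPM (log2 fold change −4.06, SE 0.42). Ccl5 (−4.54), Eomes (−4.08), Ifng (−3.53) and Tbx21, which encodes T-bet (−2.70), were lower as well. Without 1 library at a time, each of these 4 calls was lost at least once, with edgeR adjusted p up to 0.0581, 0.0903, 0.0591 and 0.0812. Ccl5, whose call was also lost without the library block (0.112), was uneven between libraries, with 335 CPM in members of p16-DTR replicate 1 and 2.41, 6.53 and 25.8 CPM in those of controls.

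Of 12 regulatory T cell genes 4 were lower and 1, Il2ra, was higher (median −1.07). Foxp3, the factor that defines regulatory cells, was lower by a log2 fold change of −2.96, as were Ikzf2 (−2.59), Izumo1r (−3.41) and Tigit (−0.99); each of these 4 calls was lost without at least 1 library (edgeR adjusted p up to 0.0507, 0.0763, 0.146 and 0.0517), and that of Foxp3 also without cells holding another gamma-delta marker (0.0789). Of 9 follicular helper genes 6 were lower and 1, Icos, was higher (median −1.81). Cxcr5, which guides cells to B cell follicles, was at 0, 0.603, 0.466 and 0.410 CPM against 27.0, 30.0, 27.7 and 20.6 CPM (−5.69, SE 0.35), and Tox was lower by −1.85. Sostdc1 had 0 UMIs in members of all 4 libraries and 1253 in other CD4 cells, at least 129.9-fold lower with a floor of 3 counts over the members. Of 13 naive and recirculating genes 6 were lower and 0 higher (median −0.99), among them Ccr7 (−3.07), Bach2 (−0.99) and Foxp1 (−0.82).

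Cd27 (−4.06), a costimulatory receptor, Il10 (−4.35), Dgki (−4.52) and Esm1 (−4.40) were among the largest decreases, where the calls of Dgki and Esm1 were lost without some 1 control (edgeR adjusted p up to 0.144 and 0.0891). Of 17 activation and checkpoint genes 2 were higher, Cd40lg (1.46) and Icos, and 4 lower. T helper 2 genes had 1 of 5 tested higher, Ccr4 (1.41), and 1 lower, Il4 (−4.50); the call of Ccr4 was lost without any 1 control (up to 0.109) and that of Il4 without any 1 of the 4 libraries (up to 0.280). Of 16 genes of lipid and glycolytic metabolism, Hk2, the hexokinase of glycolysis (2.56), and Acsbg1 (1.43) were higher and none was lower.

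Among 12 genes of senescence and cell cycle arrest and 10 of proliferation edgeR called 0, with 3 and 0 at an unadjusted p under 0.05. Cdkn1a, which encodes p21, differed by 0.85 on the log2 scale (edgeR adjusted p 0.194) and was above other CD4 cells in 3 of 4 libraries. Cdkn2a had 14.4, 3.02, 7.46 and 7.79 CPM in members against 16.96, 2.20, 7.09 and 2.32 CPM (log2 fold change 0.58, edgeR adjusted p 0.561). It was found in 4 of 75, 9 of 109 and 8 of 99 control members and in 2 of 20, 0 of 3 and 2 of 13 of the others. Il17rc had a log2 fold change of 1.54 (0.238).

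Markers of other cell types were present in these sums. Of the B cell, myeloid, endothelial, epithelial and mesenchymal lists edgeR called 0 genes between members and other CD4 cells. Only 3 of 7 B cell and 4 of 8 epithelial genes could be tested there. Of the innate lymphoid list 3 of 7 tested were higher (Cxcr6, Id2 and Klrk1) and 1, Tox, was lower; the calls of Id2 and Klrk1 each held in 1 of 4 fits without 1 library (edgeR adjusted p up to 0.105 and 0.130), and Id2 was at 0.354 without barcodes holding 5 or more UMIs of other cell types' markers. Of the gamma-delta list 2 of 5 tested were higher (Tcrg-C1 and Cd163l1), and of the CD8 list 3 of 5 were lower (Ccl5, Eomes and Nkg7). Only 4 of 9 NKT and MAIT genes could be tested, without Trav1 and Trav11 among others, and 0 were called. The calls of Cd163l1 and Nkg7 each held in 1 of 4 fits without 1 library (up to 0.161 and 0.145). Several of these genes also stand in the lists above. Summed over the 10 myeloid markers, members held 486 to 2290 CPM in controls and 3248 to 6875 CPM in the p16-DTR-labelled libraries, with C1qa, C1qb and Mrc1 at 0 in p16-DTR replicate 1 and S100a9 at 0 in p16-DTR replicate 2. Over the 8 endothelial markers they held 555 to 731 CPM in controls and 40.2 to 243 CPM in the p16-DTR-labelled libraries, and Tie1 was at 0 in each of the latter. The p16-DTR-labelled sums rest on 20, 3 and 13 members, and the 6875 and 40.2 CPM are those of the 3. Other CD4 cells held 2137, 2504 and 2782 CPM of the myeloid markers in the p16-DTR-labelled libraries and 1197, 1250 and 320 CPM in controls. Of the endothelial markers they held 1206, 673 and 821 CPM, and 559, 959 and 589 CPM. The part of such RNA in the results was not tested.

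Within the members, the 2 p16-DTR-labelled libraries with at least 10 cells (replicates 1 and 3) were compared with the 3 controls. Of 10675 genes edgeR called 0 (0%), with 1034 at an unadjusted p under 0.05 and 44 called by DESeq2. In simulated counts this comparison recovered 1.28% of changes of 1 on the log2 scale and 35.4% of changes of 2. The absence of calls therefore does not show equal levels. Members of p16-DTR replicate 1 lay nearer to controls than those of replicate 3 in both of the next genes. Furin was at 590 and 161 CPM against 826, 695 and 783 CPM, and Il23r at 315 and 131 CPM against 412, 463 and 367 CPM (log2 fold change −0.86, SE 0.37, edgeR adjusted p 0.531). Ccl5 was at 335 and 1772 CPM against 2.41, 6.53 and 25.8 CPM (6.37, SE 1.00, edgeR adjusted p 0.335). The p16-DTR-labelled sums rest on 20 and 13 cells. Of the 13 in replicate 3, 8 held exactly 1 cytokine UMI, in a library where 0.755% of B cell barcodes also held one, and the CD8 marker list stood at 2013 CPM in its members and 1844 CPM in its other CD4 cells. In replicate 1 these were 448 and 2729 CPM. Ccl5 is on that list, so the sums in members include its 1772 CPM in replicate 3 and its 335 CPM in replicate 1. Background cells among the members of replicate 3 cannot be told apart from the rest, and their part in these values was not tested.

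By library, Il23r was found in 16 of 20, 1 of 3 and 2 of 13 members of the p16-DTR-labelled libraries, and in 66 of 75, 101 of 109 and 86 of 99 members of controls. Tmem176a was found in 18 of 20, 2 of 3 and 7 of 13, against 75 of 75, 106 of 109 and 95 of 99. Ccr6 was found in 14 of 20, 1 of 3 and 4 of 13, against 49 of 75, 90 of 109 and 77 of 99. Members of p16-DTR replicate 1 were close to controls in these shares and those of replicate 3 were lower.

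The groups were then compared over CD4 cells with and without the interleukin 17 cells. These cells were chosen with their excess in controls known and hold more RNA of genes such as Il23r and Furin, so a shift of such genes towards 0 without them follows from the choice and is given as a description. With them kept in, 298 of 13181 genes were called between the p16-DTR-labelled libraries and controls (2.26%; 131 higher, 0.994%, and 167 lower, 1.27%). Without them 1 of 12829 was called (0.00779%), and 336 were called by DESeq2, which was not run with them kept in. At an unadjusted p under 0.05 stood 2297 genes with them and 1805 without them. An edgeR adjusted p under 0.1 was reached by 653 and 100 genes, so the size of the fall depends on the threshold. The 2 fits share most of their cells. In summed counts, fewer cells of a kind and less RNA per cell cannot be told apart.

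With the members kept in, 3 of 13 factors, 4 of 18 cytokine receptors and 2 of 14 homing genes of the type 17 lists were lower and 0 higher. The differences of the genes named next were nearer to 0 without the members. Il23r stood at 48.5, 10.4 and 19.5 CPM against 150, 189 and 138 CPM in controls with members kept in (log2 fold change −2.68, SE 0.48, edgeR adjusted p 0.0449). Without members it was at 27.2, 9.47 and 16.3 CPM against 44.5, 66.1 and 62.2 CPM (−1.76, SE 0.35, 0.121), and the groups did not overlap in either, as for 24.3% of all genes with members and 20.5% without. Furin went from −1.67 (0.0146) to −0.71 (0.112), Il1r1 from −2.38 (0.0208) to −1.43 (0.126), Tnfsf11 from −1.49 (0.0159) to −0.47 (0.394), Hk2 from −1.78 (0.0145) to −0.62 (0.118) and Irf4 from −1.01 (0.0189) to −0.34 (0.350).

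Several genes that were higher in members than in other CD4 cells were not called in either fit. Ccr6 had log2 fold changes of −2.12 with and −1.66 without the members (edgeR adjusted p 0.0966 and 0.145) and Il17re −2.91 and −2.23 (0.0559 and 0.128). Tmem176b had −1.12 and −0.48 (0.0686 and 0.315) and Tmeff2 −2.18 and −0.24 (0.166 and 0.911). Groups did not overlap for Ccr6 and Il17re with members kept in (24.3% of all genes) or without them (20.5%). Of the list of other type 17 marker genes, 5 of 19 were lower with members kept in, against 0 of 19 without them (8 lower and 1 higher at an unadjusted p under 0.05).

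**Figure D4:**
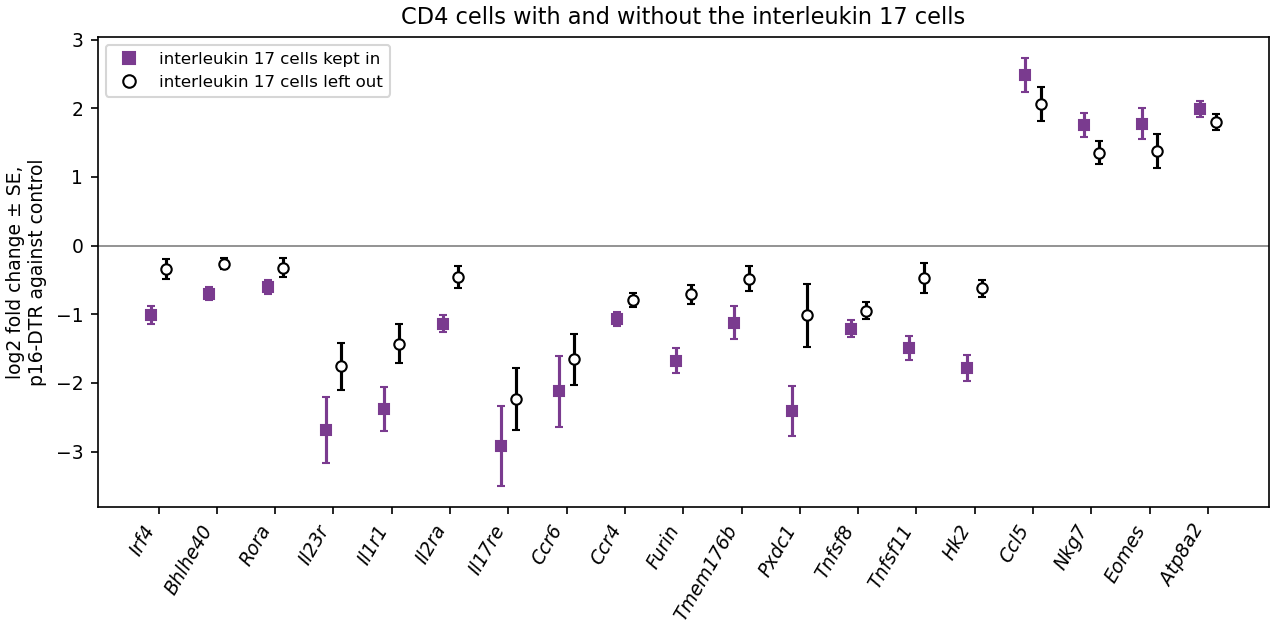
Log2 fold change (± SE) of the p16-DTR-labelled libraries against controls in summed CD4 cells, with interleukin 17 cells kept in (squares) and left out (circles). Il23r moves from −2.68 to −1.76 and Tnfsf11 from −1.49 to −0.47, while Ccl5 (2.48 and 2.06) and Atp8a2 (1.99 and 1.80) move less.

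Of the 298 genes called with members kept in, 163 lower and 131 higher genes could be tested without them. Their median log2 fold changes went from −0.69 to −0.39 for the lower and from 0.82 to 0.69 for the higher genes. These genes were chosen by their calls with members kept in, so some shift towards 0 follows from that choice. Of 12 T helper 1 genes, 6 were higher with members kept in; without them 0 were called and 7 had an unadjusted p under 0.05. Ccl5 went from 2.48 (edgeR adjusted p 0.0135) to 2.06 (0.0605), Nkg7, of cytotoxic granules, from 1.75 (0.0135) to 1.35 (0.0605), and Eomes from 1.78 (0.0159) to 1.37 (0.1001). Lyz2, a myeloid gene, went from 1.47 (0.0159) to 1.48 (0.173), and 4 of 10 myeloid markers were called higher with members kept in. The part of other cells' RNA in these sums was not tested.

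The single gene called without the members was Atp8a2 (chromosome 14, 59638540 to 60197179), a phospholipid flippase. It stood at 80.2, 75.4 and 90.7 CPM in the p16-DTR-labelled libraries and 25.2, 20.03 and 24.6 CPM in controls (log2 fold change 1.80, SE 0.12, edgeR adjusted p 0.0152). The call was kept in 2 of 6 fits that each left out 1 library (highest edgeR adjusted p 0.175, without control replicate 1; also lost without p16-DTR replicates 1 and 2 and control replicate 3).

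Trdc-positive T cells, the gamma-delta source that the rule left out, overlapped between groups. Of them 51 of 83 (61.4%), 26 of 91 (28.6%) and 74 of 116 (63.8%) held an Il17a or Il17f UMI in the p16-DTR-labelled libraries, and 38 of 74 (51.4%), 34 of 82 (41.5%) and 47 of 102 (46.1%) in controls. Means were 51.3% ± 19.7 and 46.3% ± 4.95 (SD, n = 3 each), and the difference of 4.97 points had a two-sided exact permutation p of 0.8, where 0.1 is the smallest that 3 against 3 allows. It was 16.3 points without p16-DTR replicate 2, where the groups no longer overlapped. The difference was −0.115 with p16-DTR replicate 1 left out and −1.29 with replicate 3 left out. Whether the CD4 and Trdc-positive cells differ from each other in their group difference was not tested. Of all Il17a and Il17f UMIs of a library, the CD4 members held 61.2%, 72.9% and 55.9% in controls and 12.3%, 0.538% and 1.85% in the p16-DTR-labelled libraries. Trdc-positive T cells held 23.0%, 20.03% and 30.5%, and 66.5%, 65.9% and 84.9%.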

How the data were processed

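Single-cell 3′ RNA libraries of 6 mouse lungs were analysed. The deposited values are raw UMI counts per gene and barcode, made with Cell Ranger 8.0.1 (named in the headers of the deposited files), and the submitters' processing notes name the build mm10. The annotation release and cell-calling settings are not given in the sources used here. Positions are from GENCODE M21 (GRCm38), to which 30934 of 31054 features matched.

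The members and gene lists were chosen with earlier results of these data known. No doublet caller was run; an alternative left out barcodes with 5 or more UMIs of markers of other cell types, which most CD4 cells held. It left 2 members in p16-DTR replicate 1, and leaving out cells with another gamma-delta marker left 9. Both are under the minimum of 20, and whether calls lost there reflect fewer cells was not tested. Counts were summed per library and class and tested with edgeR 4.0.16 in R 4.3.3 (quasi-likelihood test, filterByExpr, TMM), with Benjamini-Hochberg adjustment over all genes tested at 0.05. CPM are counts per 1e6 of the summed UMIs. Members were compared with other CD4 cells with library as a block, and groups without a further term. Standard errors derive from the F statistic. The 7 genes of the rule, and Tmem176a, were given without a test. The scripts were tested on simulated counts with known changes. Of the calls made there, 11.6% were false for members against other CD4 cells. The false share was 9.32% between groups in other CD4 cells and 6.45% within members. In the same order, changes of 1 on the log2 scale were recovered in 36.9%, 44.7% and 1.28% of genes. Changes of 2 were recovered in 71.6%, 90.2% and 35.4%. Intervals are exact 95% (Clopper-Pearson).

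Genes were named by a rule: Tmem176a, Tmem176b, Il23r, Ccr6, Cdkn2a, Cdkn1a, Tmeff2 and Il17rc always; of genes called between members and other CD4 cells, with at least 30 CPM in the higher class and 1 direction in every library, the 12 largest increases and 8 largest decreases; in the comparison of groups, up to 6 called genes in each direction without overlap; and up to 4 members of a list by smallest p. Alternatives were scaling by RLE or by library size, testing with DESeq2 1.42.0, no filter on low counts, each library left out, at most 5% mitochondrial UMIs, thinning to 3000 UMIs, at least 2 cytokine UMIs, other denominators, and the block removed or added.

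Replicates of a group differed by more than counting error (chi-square per degree of freedom 5.74 to 9.96 over pairs). Labels do not state that replicate numbers pair mice, so no pairing was used. Same-numbered libraries did not deviate together, but so few correlations cannot exclude a pairing. Labels give no batch. Some genes, and the planned comparator and other results that need them, are not reported here; they were left out of the lists. Other tools were scipy 1.17.1 and pandas 2.3.3 in Python 3.11.15.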

Additional observations from a re-analysis of the deposited data

Results flagged for a closer look

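A signal appeared outside the main measurement, in the entry for tdTomato, a red fluorescent protein gene that the genotypes given do not name. A tdTomato UMI was found in 2 of 36 interleukin 17 CD4 T cells of the p16-DTR-labelled libraries (5.56%, exact 95% interval 0.680% to 18.7%) and in 0 of 283 control members, which allows a share of up to 1.06% (3 counts over the pooled cells). In other CD4 cells it was found in 11 of 1167 (0.943%, 0.471% to 1.68%) and in 0 of 815 control cells, which allows up to 0.368%. In the p16-DTR-labelled libraries it was found in 1.49%, 0.900% and 0.881% of B cell barcodes, in 0.597%, 0.495% and 0.620% of all barcodes without Cd3e and in 0.463%, 0.570% and 0.634% of Cldn5-positive endothelial barcodes, and in 0 of each of these in controls. Which of these cells lack the transcript is not known here, so no background share is set. The share in other CD4 cells lies above the last 2 of these and within the range of the B cell barcodes. The share in members rests on 2 cells pooled over libraries, and no expression or difference is read from it. The intervals cover counting error only.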

How the results depend on the processing

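The share of interleukin 17 cells among CD4 cells was below that of controls in the p16-DTR-labelled libraries, without overlap, under each alternative run. The difference of −22.9 points was −16.7 with thinning, −12.0 without cells holding another gamma-delta marker, and −0.570 as a share of all barcodes; without 1 library it ran from −20.4 to −25.6. The 695 genes called between members and other CD4 cells were 206 to 707 without 1 library (280 without control replicate 1, 206 without control replicate 2, 280 without control replicate 3). Of 71 named genes called there, 39 were called in every fit without 1 library.

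The 1 call between groups in other CD4 cells became 336 with DESeq2, 90 without the filter, 77 with thinning, 18 without barcodes rich in other cells' markers, 298 with members kept in, and 0 to 5 without 1 library. The log2 fold change of Tmeff2, not called, ran from −1.34 to 0.25 without 1 library, reversing without p16-DTR replicate 3 (0.25) and without control replicate 3 (0.07). That of Cdkn1a between groups in these cells ran from 0.40 to 0.68 without 1 library. It reversed without barcodes rich in other cells' markers (−0.46). Within members the count of 0 became 44 with DESeq2, 28 without the filter, and 0 to 1 without 1 library; these alternatives were chosen after seeing the data. The difference in Trdc-positive cells ran from −1.29 to 16.3 points without 1 library, and was −0.115 without p16-DTR replicate 1. The cause was not tested. With the replicate number as a block, 0 genes were called between groups in other CD4 cells. Same-numbered libraries had correlations of deviations of 0.05, −0.14 and −0.16, too few values to settle whether the numbers pair mice.

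In the comparison within members, the sums of the p16-DTR-labelled libraries come from 20 and 13 cells.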

Other observations

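Of the 27025 genes with a promoter window, AGGTCA was found on either strand within 250 bases in 12.9% of the 9525 tested between members and other CD4 cells, and in 13.003% (42 of 323) of those higher in members. It was found 44 bases before 1 of 2 start sites of Ccr6 and was not found in the windows of Tmem176a, Tmem176b, Furin, Cxcr6, Il1r1 and Il17re. The absence of these letters from a window says nothing of any factor.

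The level of Il17f in Trdc-positive T cells was low beside that of the CD4 members in controls: 45.2, 49.4 and 11.9 CPM against 363, 362 and 401 CPM. For Il17a the control values were 691, 455 and 710 CPM in Trdc-positive cells and 1099, 887 and 653 CPM in the members. In the p16-DTR-labelled libraries, Trdc-positive cells held 1097, 324 and 1729 CPM of Il17a and 86.3, 1.99 and 72.0 CPM of Il17f. These genes chose the CD4 members, so the values are a description.

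The most frequent beta variable gene of the members, named after its values were seen, was not the same in every control. It was Trbv13-2 in control replicate 3, in 18 of 99 cells against 37 of 370 other CD4 cells. Trbv13-2 also led in control replicate 1, in 6 of 75 cells, against 17 of 207 other CD4 cells, a share no lower than in members. In control replicate 2 it was Trbv13-3, in 11 of 109 cells, and Trbv13-2 was not among the first 3.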
